A study of Macaca fascicularis with 64 samples.

Results

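The 38 genes described here drive chromosome duplication and cell division, and their transcript levels are a common readout of how many cells in a tissue are cycling. They are given by a fixed list of names: 8 genes of origin licensing and the replicative helicase (MCM2 to MCM7, CDC6, GINS2), 5 of the replication clamp and nucleotide supply (PCNA, RRM1, RRM2, TYMS, TK1), 2 E-type cyclins (CCNE1, CCNE2), 4 of the cyclin A and B group with their kinase (CCNA2, CCNB1, CCNB2, CDK1), 5 mitotic kinases and checkpoint genes (BUB1, BUB1B, AURKA, AURKB, PLK1), 2 partners of the anaphase-promoting complex (CDC20, UBE2C), 9 spindle, kinetochore and cytokinesis genes (CENPE, CENPF, KIF11, KIF20A, KIF23, TPX2, NUSAP1, PRC1, BIRC5), and MKI67, TOP2A and FOXM1. All 38 were listed in both expression tables, each of 28141 genes. The samples were tissues of cynomolgus monkeys (Macaca fascicularis). Newborn thymus, liver, kidney, heart, lung, brain and muscle came from 2 SIRT6-/- animals (named KO2 and KO3) and from 2 wild-type ones (named WT2 and WT3), the numbers in the titles being read as animals. Each animal and tissue had 2 libraries. Fetal brain and muscle, all wild type, were sampled at gestation months 2 and 4, with 2 libraries per month and tissue, and nothing says that these were separate fetuses. The sources used here do not say how the SIRT6 mutation was made, and no group was treated with an agent.

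A cell commits to division when cyclin E with its kinase starts S phase. Origins of replication are licensed beforehand by CDC6, which loads the MCM2 to MCM7 ring, and PCNA then clamps the polymerases to DNA while ribonucleotide reductase (RRM1, RRM2), TYMS and TK1 supply nucleotides. CDK1 with B cyclins drives entry into mitosis, the spindle and its checkpoint separate the chromosomes, and CDC20 and UBE2C direct the anaphase-promoting complex that ends mitosis. In newborns the thymus is a site of rapid lymphocyte division, and fetal liver is a site of blood formation. SIRT6 is a nuclear NAD-dependent deacylase of histones with roles in genome maintenance.

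The series held 64 libraries, 56 newborn and 8 fetal. Values were FPKM, fragments scaled by transcript length and by the mapped total of the library, so levels of different genes were compared per length. Total FPKM per library ran from 311092 to 587030, and the read depth behind them is unknown. Tests were made with limma on log2(FPKM + 1), on which the change of a low gene is understated, with Benjamini-Hochberg adjustment over all genes and a threshold of 0.05. The 2 libraries of an animal were averaged, so a newborn comparison set 2 animals against 2. Over the 38 genes, the median difference between the 2 libraries of an animal ran from 0.0612 to 0.172 on the log2 scale. The markers tested of each tissue, such as all 8 neuron genes in brain and all 9 thymocyte genes in thymus, were higher in their own wild-type tissue. SIRT6 itself ran from 2.71 to 12.5 FPKM in the KO libraries and from 5.45 to 12.5 in the wild type. Its KO minus wild-type difference lay between -0.56 (liver) and 0.45 (heart) with adjusted p from 0.545 to 0.941, so a level per gene gave no check of genotype. In bulk tissue, fewer cycling cells and less of these transcripts per cell cannot be told apart.

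Among wild-type newborn tissues the thymus stood far above the rest for every role in the cycle. In both WT2 and WT3 all 38 genes had their highest level in the thymus, and 37 of 37 genes tested were higher there than in the mean of the other 6 tissues, where 29.5% of all 14932 genes were higher. CENPE, a kinetochore motor, was too low over the wild-type libraries to be tested. The median difference of the 37 genes was 3.23 on the log2 scale (range 1.06 to 5.0), beside -0.05 over all genes. In 37 genes every thymus library lay above every other wild-type library, which held for 13.5% of all genes.

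MKI67, a protein of the surface of mitotic chromosomes, was at 47.4 and 45.1 FPKM in the 2 thymus libraries of WT2 and at 32.8 and 32.9 in those of WT3. Outside the thymus its highest wild-type value was 4.47 FPKM, in the WT2 liver, and its lowest was 0.088, in muscle. The thymus level was therefore several-fold above any other tissue, and its difference from the other tissues was 4.65 (SE 0.302, adjusted p = 4.57e-07). TOP2A, the topoisomerase that untangles sister chromatids, read 71.0 and 68.5 FPKM in the WT2 thymus and 69.2 and 71.3 in the WT3 thymus, a difference of 5.0 (SE 0.342, adjusted p = 6.73e-07) and the largest of the 37. UBE2C, the ubiquitin-conjugating enzyme of the anaphase-promoting complex, read 68.6 and 65.6 FPKM in WT2 and 74.5 and 82.0 in WT3, and its difference was 4.64 (SE 0.283, adjusted p = 2.9e-07). CCNB2, a B cyclin, read 38 and 36.8 in WT2 and 34.6 and 34.8 in WT3, a difference of 4.49 (SE 0.287, adjusted p = 4.1e-07). These 4 genes of late cycle steps had the largest differences, and both animals were high for each.

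The remaining reference genes of each step were also high in thymus. CCNB1, the other main B cyclin, read 27.2 and 26.0 FPKM in WT2 and 26.0 and 25.4 in WT3, a difference of 3.73 (SE 0.235, adjusted p = 3.66e-07). CDK1 read 27.1 and 22.8 in WT2 and 37.6 and 35.3 in WT3, a difference of 3.62 (SE 0.233, adjusted p = 4.36e-07). The clamp PCNA read 88.9 and 86.3 in WT2 and 81.6 and 91.8 in WT3, the highest level per length of the genes printed here. PCNA was also at 5.98 to 24.4 FPKM in every other wild-type library, so its thymus difference was smaller, 2.69 (SE 0.227, adjusted p = 3.39e-06). MCM2, a subunit of the helicase ring, read 15.7 and 14.2 in WT2 and 17.3 and 17.5 in WT3, a difference of 2.24 (SE 0.278, adjusted p = 5.14e-05). By role, the median thymus difference was 4.65 for MKI67, TOP2A and FOXM1, 4.31 for CDC20 and UBE2C, 3.73 for cyclins A and B with CDK1, 3.49 for mitotic kinases, 3.39 for spindle genes, 2.69 for the clamp and nucleotide group, 2.43 for licensing and 1.8 for the E cyclins. Mitotic roles thus had larger thymus differences than replication roles, many of whose genes were also well above 1 FPKM elsewhere.

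Below the thymus the order of tissues was less fixed. In WT2 the liver ranked second for 25 genes and the kidney for 7, while in WT3 the kidney ranked second for 13 and the liver for 9. Muscle was lowest for 19 genes in WT2 and for 24 in WT3. The median level over the 38 genes was 21.2 and 20.2 FPKM in the thymus of WT2 and WT3, 2.89 and 1.01 in liver, 2.13 and 1.22 in kidney, 1.40 and 1.21 in heart, 0.639 and 0.633 in lung, 0.510 and 0.741 in brain and 0.563 and 0.461 in muscle. The livers of the 2 wild-type animals thus differed by more than liver, kidney and heart of either animal. In the liver 37 of the 38 genes were higher in WT2 than in WT3, a count that was not made over all genes.

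Against the mean of the other 6 tissues, which includes the thymus, 29 genes were lower and 1 higher in brain (30.7% and 29.2% of all genes), 29 lower in muscle (40.8%), 25 lower in lung (17.9%) and 12 lower in heart (30.4%). In heart 3 were lower after quantile normalisation, in place of 12. Liver had 1 gene higher and 2 lower (13.5% and 42.8% of all genes), kidney 2 and 2 (27.5% and 11.8%). The liver count became 1 higher and 5 lower with the animal as a replicate block, since tissues of the same animal pair, and 4 higher and 0 lower after quantile normalisation. The kidney count became 1 higher and 11 lower after quantile normalisation, which moved the median of all genes in that comparison by -0.38. The signs outside the thymus in liver and kidney thus depended on the scaling.

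In brain the genes furthest below the other tissues were MCM7, CDK1, UBE2C and RRM2. MCM7, another subunit of the helicase ring, read 2.21 and 2.29 FPKM in the WT2 brain and 3.75 and 3.27 in the WT3 brain, and its log2 difference was -1.82 (SE 0.287, adjusted p = 0.000224). CDK1 read 0.239, 0.222, 0.758 and 0.191 in the same order (-1.68, SE 0.233, adjusted p = 8.42e-05). UBE2C read 1.01, 0.654, 0.976 and 0.999 (-1.51, SE 0.283, adjusted p = 0.000797). All 3 were low in both animals, and the 1 gene higher in brain was CCNE1, at 1.05 to 1.64 FPKM (0.42, adjusted p = 0.0433), a call that ended under quantile normalisation. RRM2, the regulated subunit of ribonucleotide reductase, read 0.358, 0.383, 1.04 and 0.396 in brain (-1.48, SE 0.355, adjusted p = 0.004). In muscle UBE2C read 1.21 and 0.671 in WT2 and 0.153 and 0.15 in WT3 (-1.92, SE 0.283, adjusted p = 0.000271). TYMS, the enzyme that makes thymidylate, read 0.346 to 0.521 in the 4 muscle libraries (-1.69, SE 0.20, adjusted p = 6.19e-05). Muscle TOP2A was at 0.133 to 0.634 (-1.65, adjusted p = 0.00218) and muscle RRM2 at 0.210 to 0.594 (-1.59, adjusted p = 0.00336). These muscle levels were all below those of the same genes in wild-type thymus by more than the spread of the libraries.

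In lung UBE2C was at 0.401 to 1.36 FPKM (-1.63, SE 0.283, adjusted p = 0.000909) and MCM4, a helicase subunit, at 2.26 to 2.91 (-1.33, SE 0.238, adjusted p = 0.00111). Lung TOP2A was at 0.705 to 0.896 (-1.18, adjusted p = 0.0181) and lung CCNB2 at 0.172 to 0.437 (-1.14, adjusted p = 0.00837). In heart TPX2, a spindle assembly factor, was at 0.493 to 0.75 (-1.06, SE 0.151, adjusted p = 0.000293), MKI67 at 0.360 to 0.546 (-0.92, adjusted p = 0.0299), MCM7 at 4.03 to 7.06 (-0.89, adjusted p = 0.0289) and MCM6 at 2.95 to 4.44 (-0.79, adjusted p = 0.0428). The liver genes past the threshold were RRM2, at 11.7 and 10.2 in WT2 and 2.53 and 2.10 in WT3 (0.91, SE 0.355, adjusted p = 0.0469), MCM6, at 6.11 and 5.74 in WT2 and 1.97 and 1.54 in WT3 (-0.90, adjusted p = 0.0184), and RRM1, at 5.01 to 6.29 (-0.60, adjusted p = 0.0158). RRM2 and MCM6 both differed between the WT2 and WT3 livers by more than the repeat libraries of an animal. In kidney TYMS was at 7.08 and 6.65 in WT2 and 8.78 and 7.57 in WT3 (1.27, SE 0.20, adjusted p = 0.000448), MCM3 at 4.09, 4.11, 6.78 and 6.74 (0.91, adjusted p = 0.0144), BUB1B, a checkpoint kinase, at 0.320 to 0.621 (-0.48, adjusted p = 0.0407) and TPX2 at 1.19 to 1.45 (-0.45, adjusted p = 0.0339).

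The thymus dominates the mean of the other tissues, so each remaining tissue was also set against the other 5 with the thymus left out, a comparison chosen after seeing the data. In liver 12 genes were then higher and 0 lower (13.4% and 39.9% of all genes), led by RRM2 (1.56, adjusted p = 0.00369) and MKI67 (1.22, adjusted p = 0.00597). In kidney 6 were higher and 0 lower (29.1% and 11.5%), led by TYMS (1.89, adjusted p = 2.53e-05) and MCM3 (1.41, adjusted p = 0.00127), while BUB1B and TPX2 turned to 0.16 and 0.13. In brain 2 were higher and 8 lower (29.9% and 28.3%). The higher brain genes were MCM4 (0.67), which read 9.13 to 9.44 FPKM in wild-type brain beside 13 to 14.9 in thymus, and CCNE1 (0.61). Muscle had 11 lower genes (37.3%) and lung 3 lower (18.9%). In heart 2 were higher and 1 lower (10.7% and 26%): CDK1 (0.94, adjusted p = 0.00936) and UBE2C (0.87) were higher, TPX2 (-0.50) lower. Liver and kidney thus had the most genes higher outside the thymus, but 12 of 37 in liver is above its share over all genes and 6 of 37 in kidney is below.

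Between KO and wild-type animals no gene of the 38 passed the threshold in any of the 7 tissues or in the mean of the 7. In limma, 1 of the 16 genes tested in brain, 0 of 14 in muscle, 4 of 38 in thymus, 8 of 36 in liver, 0 of 22 in heart, 2 of 15 in lung, 2 of 30 in kidney and 2 of 37 in the tissue mean had an unadjusted p under 0.05. The share of all genes at that unadjusted level is not given here, so these counts cannot be called high or low. Over all genes the share past the adjusted threshold was 0% in brain, 2.32% in muscle, 0.00772% in thymus, 1.1% in liver, 0.18% in heart, 0% in lung, 5.78% in kidney and 0.492% in the tissue mean. The lowest adjusted p among the 38 was 0.132, for CCNA2 in kidney. The median KO minus wild-type difference was -0.71 in thymus and 0.97 in liver, against -0.21 and -0.19 over all genes. In the other tissues it was 0.12 in brain, 0.35 in muscle, 0.08 in heart, 0.16 in lung and 0.24 in kidney, against -0.20, -0.00, -0.06, -0.17 and -0.04 over all genes. Quantile normalisation moved the all-gene median by 0.18 in brain, 0.14 in thymus, 0.16 in liver and 0.14 in lung. It left 30 of 38 thymus differences negative (32 without it) and 35 of 36 liver differences positive, as before, whereas in brain the positive differences went from 9 to 12 of 16.

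The 2 KO animals did not behave alike, and the library pair of each is given on its own against the same WT2 and WT3. In liver all 38 genes of KO3 lay above both wild-type animals, among them the 36 tested ones (37% of all genes tested). In KO2, 11 of the 36 lay above and 6 below (24.2% and 57.6%). In kidney 29 of the 30 tested genes of KO3 lay above and 0 below (43.4% and 34.4% of all genes). In KO2, by contrast, 6 of the 30 lay above and 18 below (29% and 51.3%). In thymus 31 genes of KO2 lay below both wild-type animals and 2 above (60.9% and 23.3%), while in KO3 22 lay below and 7 above (33.4% and 32.3%). In brain the order was the other way: 11 of the 16 tested genes of KO2 lay above and 4 below (33% and 52.1%). Of the same 16 in KO3, 3 lay above and 10 below (25.8% and 51.7%). KO3 exceeded KO2 for 38 of 38 genes in liver and in kidney, 34 in thymus, 32 in heart, 29 in lung, 28 in muscle and 6 in brain. Over the 38 genes, the median size of the log2 difference between KO3 and KO2 was 1.67 in liver and 1.18 in kidney, beside 0.72 and 0.37 between WT3 and WT2. Over all genes tested, the median difference from the wild-type mean was also lower in KO2 than in KO3. In KO2 and KO3 it was -0.39 and -0.02 in liver, -0.18 and 0.07 in kidney, -0.43 and 0.001 in thymus, -0.27 and 0.15 in heart, -0.22 and -0.14 in lung, -0.26 and 0.23 in muscle and -0.20 and -0.17 in brain. The share of all genes higher in KO3 than in KO2 was not counted.

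**Figure D1:**
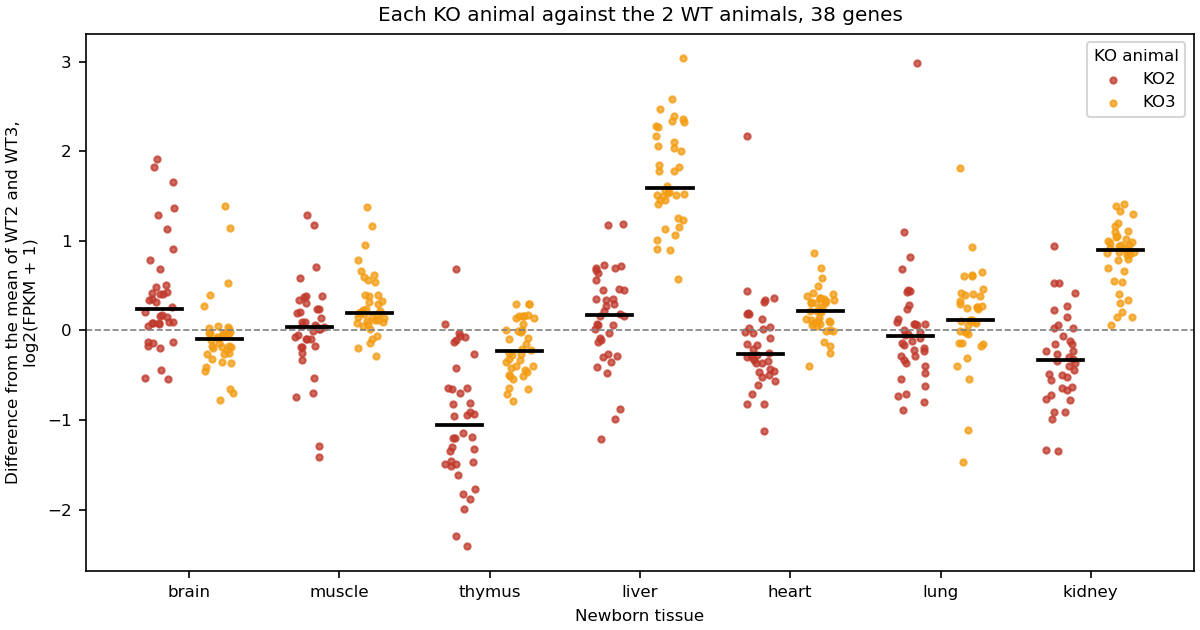
Difference of each KO animal from the mean of WT2 and WT3 on the log2(FPKM + 1) scale, by tissue, with 1 point per gene for 38 genes and a bar at the median. KO3 liver (median 1.59) and KO3 kidney (0.90) lie above 0, KO2 thymus (-1.05) lies below, and the KO3 median lies above the KO2 one in every tissue but brain (0.24 in KO2 and -0.10 in KO3).

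In thymus the cyclin, spindle and clamp genes were low in KO2 and closer to the wild type in KO3. TOP2A read 18.4 and 18.1 FPKM in KO2, 40.0 and 40.0 in KO3, 71.0 and 68.5 in WT2 and 69.2 and 71.3 in WT3. Every KO library was below every wild-type library, and the difference was -1.34 (SE 0.502, unadjusted p = 0.0291, adjusted p = 0.7). CDK1 read 4.52 and 5.21 in KO2, 18.8 and 18.6 in KO3, 27.1 and 22.8 in WT2 and 37.6 and 35.3 in WT3 (-1.53, SE 0.619, adjusted p = 0.7). BUB1B read 3.45 and 3.92 in KO2, 10.6 and 10.1 in KO3, 21.3 and 20.1 in WT2 and 14.3 and 15.4 in WT3 (-1.35, SE 0.524, adjusted p = 0.7). For these genes KO2 was lowest, KO3 was between, and the groups did not overlap. CCNB1 read 9.20 and 8.55 in KO2, 19.1 and 17.2 in KO3, 27.2 and 26.0 in WT2 and 26.0 and 25.4 in WT3 (-0.98, adjusted p = 0.7). MKI67 read 24.3 and 24.5 in KO2, 35.0 and 35.1 in KO3, 47.4 and 45.1 in WT2 and 32.8 and 32.9 in WT3 (-0.40, adjusted p = 0.778). KO3 exceeded WT3 for MKI67, so those groups overlapped. PCNA read 17.2 and 16.9 in KO2, 84.1 and 79.0 in KO3, 88.9 and 86.3 in WT2 and 81.6 and 91.8 in WT3 (-1.19, adjusted p = 0.7). PCNA in KO3 was at the wild-type level, and KO2 alone was several-fold lower. MCM2 read 9.06 and 8.37 in KO2, 19.7 and 20.3 in KO3, 15.7 and 14.2 in WT2 and 17.3 and 17.5 in WT3 (-0.26, adjusted p = 0.864), with KO3 highest.

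In 18 of the 38 thymus genes all KO libraries lay below all wild-type libraries and in none above (19.8% and 9.81% of all genes). These were mostly late-cycle genes, namely CCNA2, CCNB1, CCNB2, CDK1, BUB1, BUB1B, TOP2A and the 9 spindle and cytokinesis genes, with CDC6 and RRM1. The median difference from the wild type was -1.47 in KO2 and -0.53 in KO3 for cyclins A and B with CDK1, -1.20 and -0.39 for spindle genes, -1.32 and 0.01 for the clamp and nucleotide group, and -0.82 and 0.15 for licensing. Not all thymus genes were low in KO2. MCM7 read 89.0 and 91.5 FPKM in KO2, 56.6 and 54.2 in KO3, 54.6 and 53.1 in WT2 and 58.5 and 56.1 in WT3, so it was highest in KO2. CDC20, the activator of the anaphase-promoting complex, read 46.7 and 47.2 in KO2, 45.9 and 42.4 in KO3, 42.7 and 43.3 in WT2 and 48.0 and 45.1 in WT3, with the groups overlapping. UBE2C likewise overlapped, at 65.8 to 76.9 in the KO libraries and 65.6 to 82.0 in the wild type. Without KO3, with KO2 assumed to vary like the wild type, 6 thymus genes were lower past the threshold, namely CDK1 (-2.41, adjusted p = 0.035), PCNA (-2.29, adjusted p = 0.035), BUB1B (-1.99, adjusted p = 0.0419), TOP2A (-1.88, adjusted p = 0.0447), RRM2 (-1.82, adjusted p = 0.046) and BIRC5 (-1.77, adjusted p = 0.0459), beside 3.49% of all genes lower in that fit. Without KO2 none was.

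The summed level of 9 thymocyte markers, none at 0, was 1227 to 1246 FPKM in the KO2 thymus. It was 2886 to 2972 in KO3, 2813 to 2958 in WT2 and 3704 to 3710 in WT3. The summed neutrophil and promyelocyte markers (8 of 8 listed) were 1964 to 2126 in KO2, 5280 to 5325 in KO3 and 1133 to 1748 in the wild type. The 6 skeletal muscle fibre markers summed to 127 to 128 in the KO3 thymus, 13.3 to 13.6 in KO2 and 3.99 to 8.63 in the wild type. Their part in the thymus levels was not tested.

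In liver the 38 genes were high in KO3. In KO2 most of them were not above both wild-type animals, but the 3 with the smallest p were. RRM2 read 13.5 and 13.1 FPKM in KO2, 54.4 and 47.1 in KO3, 11.7 and 10.2 in WT2 and 2.53 and 2.10 in WT3. All KO libraries lay above all wild-type ones, and the difference was 2.11 (SE 0.721, adjusted p = 0.205). CDC20 read 11.7 and 9.05 in KO2, 13.6 and 11.9 in KO3, 5.10 and 5.57 in WT2 and 3.54 and 2.41 in WT3 (1.32, SE 0.480, adjusted p = 0.228). TYMS read 4.95 and 5.64 in KO2, 19.3 and 19.3 in KO3, 3.31 and 3.75 in WT2 and 2.33 and 2.29 in WT3 (1.54, SE 0.588, adjusted p = 0.251). These 3 had the smallest p in liver, and CDC20 was the one in which KO2 and KO3 were near each other. In 6 of 36 liver genes, RRM2, TYMS, TK1, PLK1, CDC20 and BIRC5, all KO libraries were above all wild-type libraries (11.4% of all genes). Without WT2, RRM2 alone passed the threshold (3.04, adjusted p = 0.00515), where 1.14% of all genes were higher, and it passed with TK1 in 1 fit of all 7 tissues (adjusted p of 0.0317 and 0.0428), where 2.33% of all genes were higher.

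The reference genes of the liver showed the spread between animals. MKI67 read 4.05 and 4.21 FPKM in KO2, 18.9 and 17.6 in KO3, 4.42 and 4.47 in WT2 and 0.807 and 1.0 in WT3 (1.63, adjusted p = 0.304). TOP2A read 2.15 and 2.31 in KO2, 14.2 and 12.6 in KO3, 3.92 and 3.34 in WT2 and 0.711 and 0.804 in WT3 (1.26, adjusted p = 0.441). CCNB1 read 1.07 and 1.18 in KO2, 9.86 and 9.44 in KO3, 2.80 and 2.76 in WT2 and 0.693 and 0.910 in WT3 (0.87, adjusted p = 0.602). For all 3, KO2 lay between the 2 wild-type animals, and KO3 was above every other animal. CDK1 read 2.45 and 2.96 in KO2, 15.3 and 11.5 in KO3, 3.35 and 2.80 in WT2 and 1.17 and 1.83 in WT3 (1.2, adjusted p = 0.412). MCM2 read 3.09 and 3.86 in KO2, 13.5 and 13.7 in KO3, 4.19 and 3.96 in WT2 and 1.76 and 1.09 in WT3 (1.21, adjusted p = 0.402). PCNA read 6.08 and 6.16 in KO2, 37.9 and 42.3 in KO3, 16.3 and 14.5 in WT2 and 12.8 and 9.99 in WT3 (0.27, adjusted p = 0.891). PCNA was lowest in KO2 and highest in KO3, so the 2 KO animals bracketed both wild-type animals. In KO3 the liver was the highest tissue of all for RRM2, TK1, CCNE1 and AURKA, and the second after thymus for 32 genes.

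**Figure D2:**
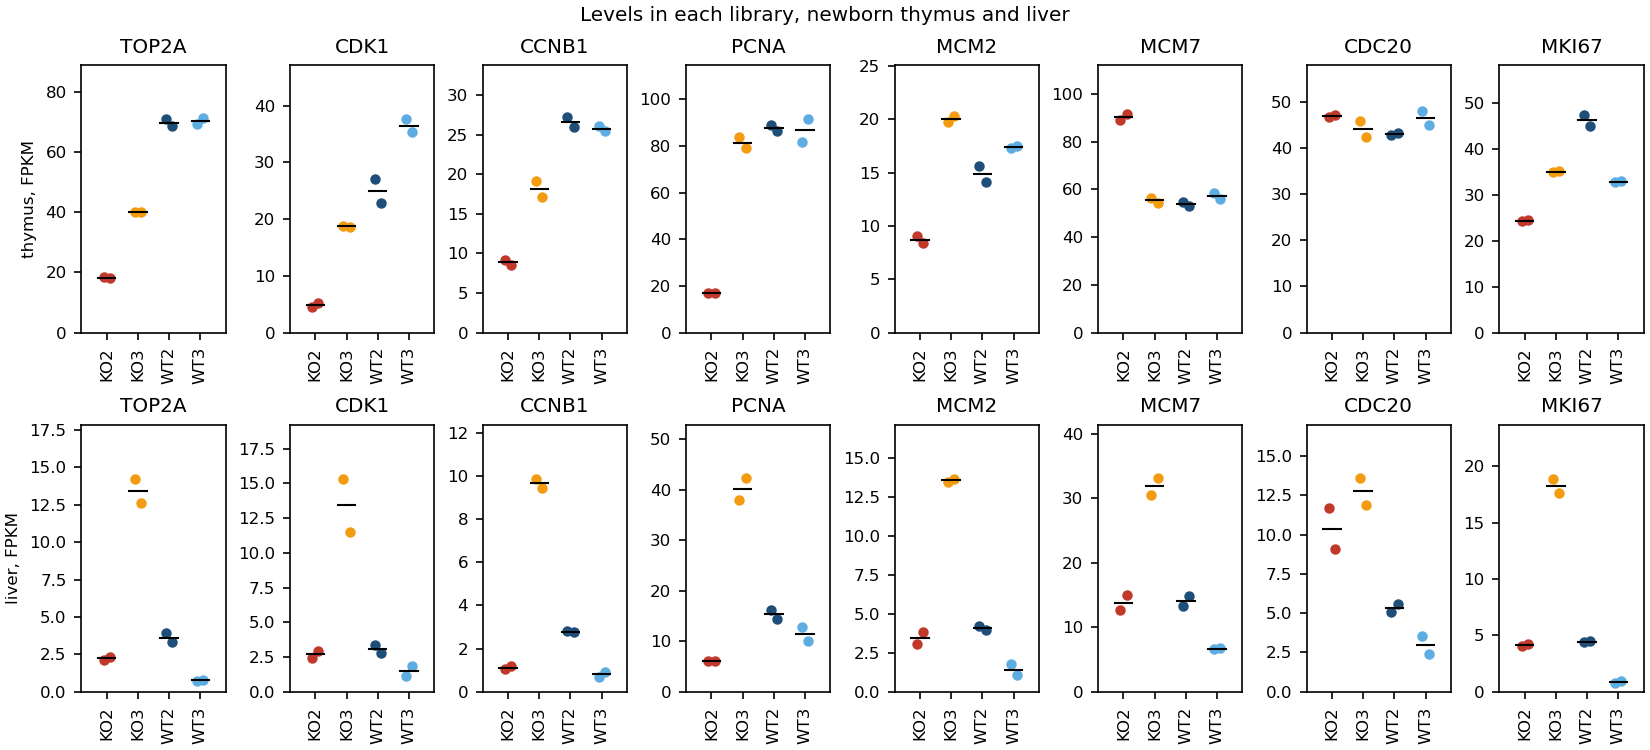
FPKM of TOP2A, CDK1, CCNB1, PCNA, MCM2, MCM7, CDC20 and MKI67 in thymus and liver, with 1 point per library and a bar at the mean of the 2 libraries of an animal. In thymus KO2 is the lowest animal for most of these genes but the highest for MCM7, and in liver KO3 is the highest animal for all 8.

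Blood cell markers also differed between the livers. The 10 erythroid markers, none at 0, summed to 586 to 597 FPKM in the KO2 liver, 1224 to 1270 in KO3, 263 to 266 in WT2 and 79.3 to 83.2 in WT3. The 9 macrophage markers summed to 45.8 to 47.3 in KO2, 248 to 268 in KO3, 1015 to 1033 in WT2 and 981 to 987 in WT3. The neutrophil and promyelocyte markers summed to 459 to 497 in KO2, 820 to 1001 in KO3, 1558 to 1579 in WT2 and 128 to 135 in WT3. The 5 hepatocyte markers summed to 47960 to 49740 in KO2 and to 61990 to 72910 in the other 3 animals. KO3 was thus highest and WT3 lowest for the erythroid sum. The part of these cells in the liver levels was not tested.

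In kidney KO3 was the highest animal and KO2 was often the lowest. TOP2A read 0.699 and 0.622 FPKM in KO2, 7.79 and 7.58 in KO3, 4.01 and 3.86 in WT2 and 1.26 and 1.16 in WT3 (0.20, adjusted p = 0.91). CCNB1 read 0.725 and 0.278 in KO2, 4.93 and 4.62 in KO3, 1.90 and 2.41 in WT2 and 1.37 and 1.55 in WT3 (0.07, adjusted p = 0.963). In both, the 2 KO animals lay on opposite sides of the wild type. MKI67 read 0.588 and 0.575 in KO2, 2.42 and 2.74 in KO3, 1.13 and 1.10 in WT2 and 0.464 and 0.464 in WT3 (0.44, adjusted p = 0.64). MCM2 read 1.94 and 1.99 in KO2, 8.06 and 7.88 in KO3, 3.64 and 3.51 in WT2 and 4.05 and 3.40 in WT3 (0.15, adjusted p = 0.901). CDK1 was at 1.27 and 1.39 in KO2 and at 4.59 and 6.47 in KO3, around a wild-type range of 1.88 to 3.49, and PCNA was at 10.7 and 12.2 in KO2 and 23 and 23.5 in KO3, with the wild type at 20.1 to 24.4. The 3 genes with the smallest p were high in both KO animals. CCNA2, the S phase and mitotic cyclin, read 3.54 and 5.30 in KO2, 4.23 and 4.95 in KO3, 2.37 and 2.19 in WT2 and 1.26 and 1.52 in WT3 (0.97, SE 0.331, adjusted p = 0.132). PLK1, a kinase of mitotic entry and exit, read 3.76 and 3.69, 6.57 and 5.53, 3.10 and 2.63, and 1.72 and 1.81 in the same order (0.82, SE 0.357, adjusted p = 0.225). KIF11, the motor that separates spindle poles, read 1.37 and 1.29, 2.00 and 2.08, 0.957 and 0.572, and 0.409 and 0.543 (0.73, SE 0.348, adjusted p = 0.27). These were the 3 of 30 kidney genes whose KO libraries all lay above the wild type (17.1% of all genes). Without KO3, MCM4 was lower past the threshold (-1.33, adjusted p = 0.0426), as were 9.62% of all genes. The summed level of 5 kidney markers was 348 to 354 in KO2 and 633 to 637 in KO3, beside 3223 to 3355 in the wild type. Its part in these levels was not tested.

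In brain TK1, the salvage thymidine kinase, read 3.91 and 3.31 FPKM in KO2 and 2.44 and 2.35 in KO3, beside 0.157 and 0.108 in WT2 and 0.570 and 0.408 in WT3. The groups did not overlap, and its difference of 1.61 (SE 0.348, unadjusted p = 0.00442) had an adjusted p of 0.388, which was 0.00872 in 1 fit of all 7 tissues (1.12% of all genes higher). CCNA2 read 3.19 and 3.87 in KO2, 1.66 and 1.70 in KO3, 0.731 and 0.410 in WT2 and 0.959 and 1.44 in WT3 (0.91, SE 0.399, adjusted p = 0.392). TK1 and CCNA2 were the 2 brain genes with all KO libraries above the wild type (10.7% of all genes), and RRM1 and TPX2 the 2 with all below (28.2%). PCNA read 7.33 and 6.74 in KO2, 6.08 and 4.72 in KO3, 9.67 and 6.54 in WT2 and 11.7 and 13 in WT3 (-0.61, SE 0.339, adjusted p = 0.441). KO2 alone was high for others: MCM7 read 12.8 and 13.9 in KO2, 2.06 and 2.06 in KO3, 2.21 and 2.29 in WT2 and 3.75 and 3.27 in WT3. CDC20 read 5.38 and 4.08 in KO2, 0.514 and 0.489 in KO3, 0.643 and 0.560 in WT2 and 1.26 and 0.83 in WT3. Without KO3, 3 brain genes were higher past the threshold: MCM7 (1.91, adjusted p = 0.0243), TK1 (1.83, adjusted p = 0.0233) and CDC20 (1.66, adjusted p = 0.0267), beside 6.42% of all genes higher. The 10 neural progenitor markers summed to 581 to 588 in KO2, 149 to 157 in KO3, 441 to 492 in WT2 and 329 to 355 in WT3, highest in KO2 and lowest in KO3. Muscle fibre markers in the brain libraries summed to 77.2 to 77.4 in KO2, 100.5 to 156 in KO3 and 7.11 to 10.6 in the wild type. The 9 macrophage markers, MARCO at 0 in KO2, KO3 and WT2, summed to 131 to 135 in KO2, 2.22 to 2.53 in KO3, 171 to 183 in WT2 and 179 in WT3. The 10 erythroid markers summed to 14.3 to 17.4 in KO2, 12 to 12.7 in KO3 and 4.33 to 5.11 in the wild type, with RHAG at 0 in KO3 and WT3 and AHSP at 0 in WT3. The part of these cells in the brain levels was not tested.

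In lung CDC20 stood out in KO2, at 20.1 and 19.7 FPKM, beside 2.59 and 2.44 in KO3, 1.53 and 1.89 in WT2 and 1.34 and 1.90 in WT3 (1.69, SE 0.799, adjusted p = 0.729). Without KO3 it passed the threshold (2.98, adjusted p = 0.0128), as 1.08% of all genes did upwards. UBE2C read 1.97 and 1.74 in KO2, 5.57 and 4.89 in KO3, 0.401 and 1.36 in WT2 and 0.909 and 0.561 in WT3 (1.25, SE 0.509, adjusted p = 0.682). PCNA went the other way, at 9.38 and 8.84 in KO2, 5.52 and 5.93 in KO3, 11.3 and 16.6 in WT2 and 23.2 and 22.2 in WT3 (-1.18, SE 0.486, adjusted p = 0.682). Of 15 lung genes, RRM2, PLK1, CDC20 and UBE2C had all KO libraries above the wild type (8.04% of all genes) and MCM6, PCNA and RRM1 all below (20.6%). The 3 lung epithelium markers listed summed to 1576 to 1654 in the KO2 lung and 1329 to 1340.0 in KO3, beside 17680.0 to 18510.0 in the wild type. The macrophage markers, none at 0, summed to 44.0 to 46.1 in KO2, 460.1 to 460.2 in KO3 and 172 to 206 in the wild type, and the erythroid markers to 71.5 to 81.4, 282 to 290.1 and 37.7 to 57.9. Their part in the lung levels was not tested.

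In heart CDC20 was again high in KO2, at 12.6 and 13.1, beside 2.82 and 2.36 in KO3, 1.71 and 1.50 in WT2 and 2.83 and 2.46 in WT3 (1.2, SE 0.595, adjusted p = 0.578). Without KO3 it passed the threshold there too (2.17, adjusted p = 0.0348), beside 1.11% of all genes higher. Heart TYMS read 2.43 and 2.96 in KO2, 4.11 and 4.29 in KO3, 1.88 and 2.48 in WT2 and 1.62 and 1.54 in WT3 (0.61, SE 0.463, adjusted p = 0.815). Heart MCM7 read 7.81 and 8.25 in KO2, 8.71 and 9.39 in KO3, 4.03 and 5.22 in WT2 and 7.06 and 6.83 in WT3 (0.51, SE 0.441, adjusted p = 0.856), the 1 heart gene whose libraries did not overlap (12.6% of all genes higher). The macrophage markers in heart, none at 0, summed to 13.2 to 17.3 in KO2, 40.9 to 41.6 in KO3 and 96.5 to 155 in the wild type, and the erythroid markers to 128 to 135, 76.3 to 77.4 and 53.6 to 69.7, with RHAG at 0 in WT3. Their part in the heart levels was not tested.

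Newborn muscle had low levels in every animal. UBE2C read 3.43 and 2.00 FPKM in KO2, 0.665 and 1.28 in KO3, 1.21 and 0.671 in WT2 and 0.153 and 0.15 in WT3 (0.84, SE 0.448, adjusted p = 0.439). MCM5 read 1.05 and 1.54 in KO2, 4.21 and 4.53 in KO3, 0.988 and 0.452 in WT2 and 1.35 and 1.70 in WT3 (0.76, SE 0.482, adjusted p = 0.564). Each was raised in 1 KO animal, not the same one. PCNA read 2.67 and 2.12 in KO2, 5.77 and 5.77 in KO3, 5.98 and 6.30 in WT2 and 8.02 and 9.08 in WT3 (-0.78, SE 0.506, adjusted p = 0.574). Of 14 muscle genes tested, MCM3, CCNE1 and PLK1 had all KO libraries above the wild type (16.2% of all genes) and PCNA all below (15.4%). The macrophage markers in muscle, none at 0, summed to 1.87 to 2.47 in KO2, 33.1 to 33.2 in KO3, 83.7 to 85.2 in WT2 and 45.9 to 46.9 in WT3. The 3 myoblast markers listed, none at 0, summed to 103 to 108 in KO2, 75.8 to 78.2 in KO3, 36.4 to 36.9 in WT2 and 53.1 to 57.5 in WT3. Their part in the muscle levels was not tested.

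Averaged over the 7 tissues, CDC20 had the smallest p among the 38 (0.88, SE 0.335, adjusted p = 0.293), followed by TK1 (0.60, SE 0.229, adjusted p = 0.299) and PLK1 (0.56, SE 0.290, adjusted p = 0.427), all with positive differences, while PCNA was at -0.63 (adjusted p = 0.451). Without KO3, CDC20 (1.32, adjusted p = 0.0301) and PCNA (-1.13, adjusted p = 0.0481) passed the threshold in opposite directions, where 2.53% of all genes were higher and 4.3% lower. KO2 was the lowest of the 4 animals for RRM1 in 7 of 7 tissues, for BUB1B and KIF23 in 6 and for PCNA in 5. KO2 was the highest for CDC20 in 5 tissues and for FOXM1, a transcription factor of mitotic genes, in 4. KO3 was the highest for TYMS and for CCNB1 in 6 tissues. Of all genes tested, 49.3% (lung) to 60.9% (thymus) lay below both wild-type animals in KO2, and 23.3% (thymus) to 33% (brain) above both. In KO3, 25.8% (brain) to 52.8% (muscle) lay above both. How many of all genes were lowest or highest of the 4 animals was not counted.

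Whether the KO difference itself differed between tissues was tested per animal, as a tissue minus the mean of that animal's other 6 tissues. For thymus 36 of 37 values were negative with a median of -0.97, and for liver 36 of 37 were positive with a median of 0.90. The medians for the other tissues ran from -0.11 to 0.21. No gene passed the threshold in limma for any tissue, where 0.00665% of all genes did for brain, for thymus and for lung, 0.0532% for muscle, 0.193% for heart, 0.359% for liver and 3.54% for kidney. At an unadjusted p under 0.05 there were 22 genes for thymus, 12 for liver, 2 each for brain and kidney, 1 for heart and 0 for muscle and lung. No share of all genes at that unadjusted level is given, so these counts cannot be called high or low. The smallest p for thymus was that of TOP2A (-1.53, SE 0.300, adjusted p = 0.311) and for liver that of BIRC5, a member of the chromosomal passenger complex (1.34, SE 0.315, adjusted p = 0.162). Without KO3, 13 genes were lower past the threshold for thymus, 2 lower for kidney (CDC20 and UBE2C) and 2 higher for brain (MCM7 and CDK1), beside 2.38%, 5.28% and 6.81% of all genes in the same directions. With the replicate block CDK1 was lower for thymus (-1.85, adjusted p = 0.0466), where 0.12% of all genes were lower.

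Other genes of the cycle, from lists beyond the 38, gave few calls between KO and wild type. Of 33 replication genes listed, 1 of the 27 tested in liver was higher: CDT1, the licensing partner of CDC6, with animal means of 39.7 FPKM in KO2, 16.6 in KO3, 3.91 in WT2 and 2.89 in WT3 (2.62, SE 0.527, adjusted p = 0.045). Both KO animals lay above both wild-type animals, but the adjusted p was 0.16 without KO2, 0.051 without KO3, 0.092 without WT3 and 0.12 after quantile normalisation. Of the mitotic genes, 1 of 7 tested in muscle was higher: CKS2, a small CDK-binding protein, at 20.1, 5.63, 1.8 and 1.44 in the same order (2.17, SE 0.538, adjusted p = 0.028), a call that ended without any of KO2, WT2 and WT3 (adjusted p of 0.196, 0.199 and 0.363). Of the CDK inhibitors and p53 targets, 1 of 10 tested in muscle was lower: CDKN1A, which encodes the CDK inhibitor p21, at 9.29, 8.33, 35.5 and 65.0 (-2.33, SE 0.479, adjusted p = 0.00776). Its adjusted p was 0.073 without KO2, 0.436 without WT3 and 0.113 after quantile normalisation. In kidney 1 of 11 was lower: GADD45A, a growth-arrest gene, at 66.9, 63.7, 411 and 207 (-2.14, SE 0.359, adjusted p = 0.0136), with an adjusted p of 0.122 without WT2. CDKN1C, which encodes the CDK inhibitor p57, had its smallest adjusted p in liver, at 20.8 in KO2, 30.4 in KO3, 8.27 in WT2 and 2.87 in WT3 (2.13, SE 0.541, adjusted p = 0.098). In thymus 0 of 33 other replication genes and 5 of 42 other mitotic genes had a positive difference, with medians of -0.42 and -0.55 and no call, and in liver 23 of 27 and 30 of 31 did, with medians of 0.52 and 0.83. In wild-type thymus 29 of 29 other replication genes and 36 of 36 other mitotic genes tested were higher than in the other tissues.

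Between gestation months 2 and 4, 14 of the 35 genes tested fell in fetal muscle and 1 rose. Lower at month 4 were TK1, UBE2C, AURKB, CDC20, GINS2, MCM5, CCNE1, TYMS, FOXM1, TOP2A, KIF20A, MCM7, MCM3 and BIRC5, against 15.7% of all genes lower. RRM1, the large subunit of ribonucleotide reductase, was higher, against 22.3% of all genes higher. The median difference of the 35 was -0.39, beside 0.16 over all genes. In 20 genes both month 4 libraries lay below both month 2 libraries (29.2% of all genes) and in 1 above (44.3%). After quantile normalisation, which moved the all-gene median by -0.16, 19 were lower and 1 higher (19% and 17.3% of all genes). Without month 2 library 1 there were 4 lower and without library 2 there were 7 (6.51% and 6.7% of all genes lower), and in neither case was RRM1 past the threshold. The p-values measure the spread between these libraries, which may be technical.

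TK1 read 9.91 and 11.2 FPKM in the month 2 muscle libraries and 3.04 and 2.03 at month 4, and fell by 1.72 on the log2 scale (SE 0.221, adjusted p = 0.000412). UBE2C read 44.2 and 29.8 at month 2 and 15.6 and 10.4 at month 4 (-1.44, SE 0.243, adjusted p = 0.00173). Both fell in every library pairing, as did the next 2 genes. AURKB, the kinase of the chromosomal passenger complex, read 16.8 and 15.1 at month 2 and 7.62 and 5.46 at month 4 (-1.19, SE 0.208, adjusted p = 0.00211). CDC20 read 18 and 19.8 at month 2 and 9.79 and 6.11 at month 4 (-1.18, SE 0.226, adjusted p = 0.00325). With all 8 fetal libraries in 1 fit, fewer of the genes passed the threshold. UBE2C (adjusted p = 0.0564) and CDC20 (adjusted p = 0.0707) were among those that missed it. GINS2, a helicase partner, was at 4.74 and 3.49 and then 1.15 and 1.41 (-1.16, adjusted p = 0.00456), MCM5 at 11.5 and 9.47 and then 4.78 and 4.98 (-0.96, adjusted p = 0.00489), and CCNE1 at 7.41 and 5.20 and then 2.82 and 2.65 (-0.95, adjusted p = 0.00976). In the fit of the muscle libraries alone, the fall thus reached licensing, E cyclin and late mitotic genes.

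Of the other reference genes, CCNB1, CDK1, MCM2, PCNA and MKI67 did not pass the threshold. CCNB1 read 2.28 and 1.91 at month 2 and 2.21 and 1.50 at month 4 (-0.13, adjusted p = 0.704). CDK1 read 6.46 and 6.42 and then 6.48 and 4.82 (-0.17, adjusted p = 0.538). For both, month 4 library 1 overlapped month 2. MCM2 read 5.29 and 4.79 and then 4.96 and 3.46 (-0.23, adjusted p = 0.442), and PCNA 20.04 and 17.3 and then 19 and 14.1 (-0.17, adjusted p = 0.518). MKI67 read 2.87 and 2.44 and then 1.82 and 1.28 (-0.53, adjusted p = 0.107), without overlap of the months. TOP2A fell, from 5.78 and 7.42 to 4.4 and 2.44 (-0.81, adjusted p = 0.0328). RRM1 rose, from 4.09 and 3.90 to 7.78 and 6.14 (0.66, SE 0.210, adjusted p = 0.0317), while its partner RRM2 did not pass. The 3 myoblast markers listed summed to 132 and 141 FPKM at month 2 and to 77.8 and 116 at month 4, and the 9 macrophage markers to 146 in each month 2 library and 61.1 and 62.3 at month 4. The part of these cells in the change was not tested.

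**Figure D3:**
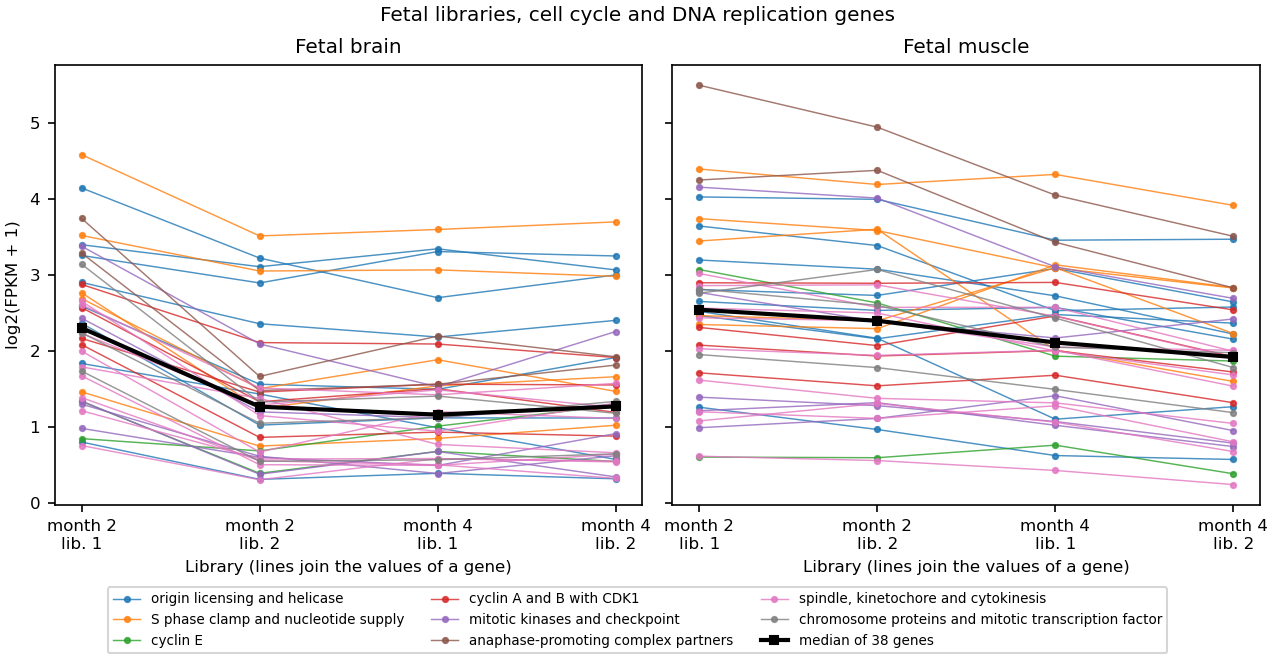
Level of the 38 genes on a log2(FPKM + 1) axis in each fetal library of brain and muscle, with 1 line per gene and the median in black. Month 2 brain library 1 lies above the other 3 brain libraries, and the muscle median falls from month 2 to month 4.

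In fetal brain no gene of the 27 tested passed the threshold between the months in limma, where 4.01% of all genes did (3.28% higher and 0.732% lower). Of the 27, 26 had a negative difference, with a median of -0.49 (0.07 over all genes). At an unadjusted p under 0.05, for which no share of all genes is given, there were 3 genes. These were CENPF, a kinetochore protein, at 2.46 and 1.60 FPKM at month 2 and 0.706 and 0.582 at month 4 (-0.87, adjusted p = 0.115), GINS2, at 2.57 and 1.70 and then 0.987 and 0.489 (-0.85, adjusted p = 0.138), and MCM7, at 16.7 and 8.34 and then 5.51 and 7.01 (-0.83, adjusted p = 0.18). With CCNA2 they were the 4 genes whose month 4 libraries lay below both month 2 libraries (20.4% of all genes).

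The 2 month 2 brain libraries themselves differed. Library 1 was above library 2 for 38 of 38 genes, with a median difference of 0.95 on the log2 scale, and 18 genes differed by at least 1. Of all genes with a mean FPKM of at least 1, 49.9% were above and 3.90% differed by at least 1. The counts of the 38 include genes below that level. TOP2A read 7.84 FPKM in library 1 and 1.51 in library 2, beside 1.65 and 1.27 at month 4. MKI67 read 2.33 and 0.463 and then 0.484 and 0.567, and CDK1 4.95 and 1.52 and then 1.84 and 1.28. For these genes library 1 stood alone and library 2 was at the month 4 level. CCNB1 read 3.49 and 1.75 and then 1.96 and 1.94, MCM2 6.48 and 4.13 and then 3.54 and 4.29, and PCNA 23 and 10.4 and then 11.1 and 12. Library 1 was above both month 4 libraries for 36 genes and library 2 for 5. Without library 2, 19 genes were lower at month 4 (3.2% of all genes), TOP2A among them (-1.85, adjusted p = 5.86e-06) with CDK1 (-1.22, adjusted p = 0.00726) and PCNA (-0.94, adjusted p = 0.0266), and without library 1 none was. The 10 neural progenitor markers, none at 0, summed to 1928 in library 1, 918 in library 2 and 549 and 699 at month 4, and the 8 neuron markers to 1300.0, 2092, 1909 and 1916. Their part in the difference was not tested.

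**Figure D4:**
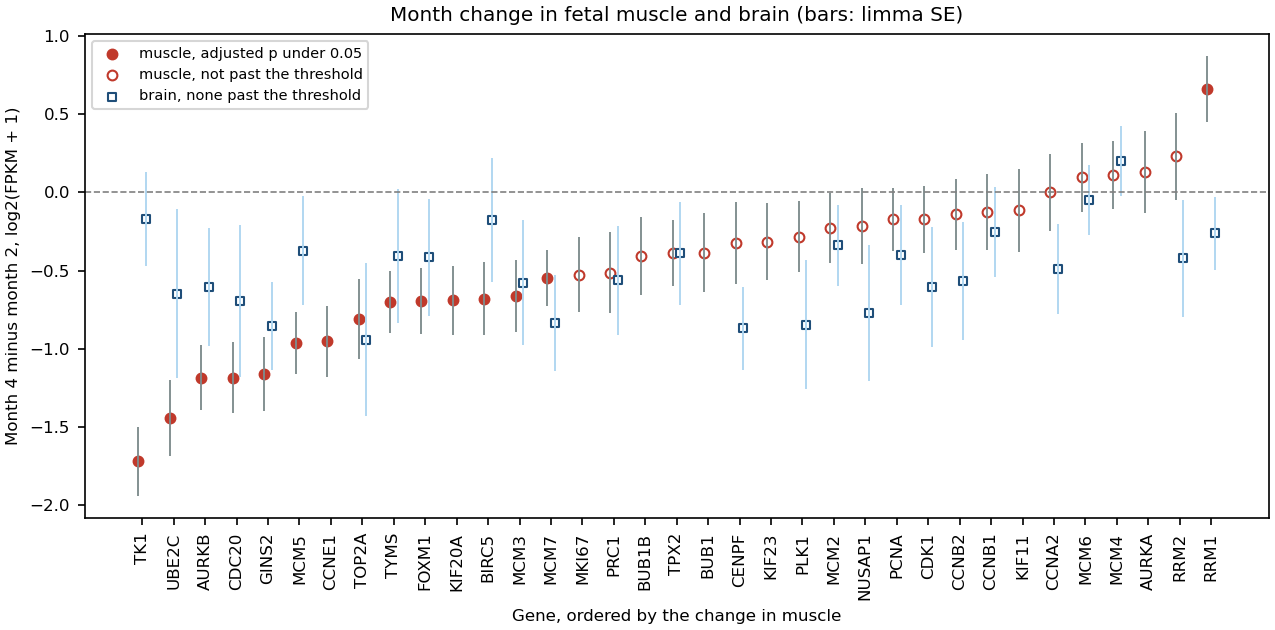
Month 4 minus month 2 difference of each gene on the log2(FPKM + 1) scale in fetal muscle and brain, with limma standard errors. Filled muscle points passed an adjusted p of 0.05. TK1 (-1.72) is the largest fall in muscle, RRM1 (0.66) the 1 rise, and no brain gene passed.

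At month 2, muscle had 12 of 34 genes higher than brain and 3 lower (25.6% and 49.2% of all genes, 74.9% in all). In 16 genes both muscle libraries lay above both brain libraries and in 4 below (31.4% and 56.9% of all genes). The 4 largest were UBE2C (2.52, SE 0.647, adjusted p = 0.0134), TK1 (2.42, SE 0.261, adjusted p = 0.000386), AURKB (2.27, SE 0.392, adjusted p = 0.00262) and CCNE1 (2.09, SE 0.207, adjusted p = 0.000276). UBE2C was at 12.4 and 2.17 in the brain libraries, TK1 at 1.76 and 0.681, AURKB at 4.4 and 1.30, and CCNE1 at 0.799 and 0.608. Each was below both muscle libraries given above. Lower in muscle were RRM1 (-0.97, adjusted p = 0.00567), MCM4 (-0.76, adjusted p = 0.015) and MCM6 (-0.48, adjusted p = 0.0403), but after quantile normalisation, which moved the all-gene median by 0.42, 19 were higher and 0 lower (33.7% and 37% of all genes). Without brain library 1, 25 were higher and 1 lower (27.9% and 45.8%), without brain library 2, 10 and 9 (25.2% and 46.7%), and without muscle library 1 or 2 only 2 were higher (18% and 18.5%).

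At month 4, 19 of 29 genes were higher in muscle and 1 lower (21.2% and 38.6% of all genes, 59.9% in all), and 22 had both muscle libraries above both brain libraries and 1 below (29.2% and 51%). UBE2C was at 3.58 and 2.79 FPKM in brain (1.72, SE 0.260, adjusted p = 0.000354), AURKB at 1.18 and 1.47 (1.69, SE 0.251, adjusted p = 0.000318), CDC20 at 1.96 and 2.52 (1.44, adjusted p = 0.0014) and KIF20A, a cytokinesis motor, lower in brain than its 3.0 and 2.21 in muscle (1.43, adjusted p = 0.000718). The 1 gene lower in muscle was MCM4, at 4.58 and 4.16 in muscle and 8.91 and 8.52 in brain (-0.86, adjusted p = 0.00813). MCM4 was no longer lower after quantile normalisation, when 23 were higher (29.7% of all genes). Without month 4 brain library 1, 8 were higher (16.8%), without brain library 2, 12 (16.4%), and without muscle library 1, 11 (17.3%) with 1 lower (38%).

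The month change differed between the tissues past the threshold for 2 of 32 genes (7.39% of all genes). TK1 fell in muscle and was at 1.76 and 0.681 and then 0.801 and 1.03 in brain, so brain minus muscle was 1.55 (SE 0.374, adjusted p = 0.0268). CCNE1 was at 0.799 and 0.608 and then 1.02 and 1.44 in brain, for 1.33 (SE 0.311, adjusted p = 0.0236). Neither was past the threshold with no filter on low values or without either muscle library of month 2, and without month 2 brain library 1 UBE2C (1.83, adjusted p = 0.0288) and CDC20 (1.39, adjusted p = 0.0498) were past it with them (5.6% of all genes in that direction).

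Of the other lists, 9 of 24 replication genes fell in fetal muscle from month 2 to 4, including CDC45 (-1.31, adjusted p = 0.00204) and LIG1 (-1.17, adjusted p = 0.00271), and 7 of 28 mitotic genes fell, including CDC25B, a phosphatase that activates CDK1 (-1.44, adjusted p = 0.000311), and PTTG1, which encodes securin (-1.29, adjusted p = 0.00185), beside 15.7% of all genes lower. Of 16 genes of G1 control, 3 fell, with MYBL2 (-1.12, adjusted p = 0.00205), and 1 rose, RBL2, a pocket protein (1.08, adjusted p = 0.00569), so the G1 count lower was near the share over all genes and the count higher was below the 22.3% of all genes. In fetal brain no gene of these 3 lists, of 25, 18 and 17 tested, passed. CDKN1A went in opposite directions. In muscle it fell, from 26.0 and 27.3 FPKM to 6.74 and 3.76 (-2.19, SE 0.239, adjusted p = 0.000181), and in brain it rose, from 1.99 and 1.93 to 8.67 and 12.7 (1.96, SE 0.247, adjusted p = 0.00437). The difference between those changes was 4.15 (SE 0.362, adjusted p = 0.000364) and was past the threshold under all 13 alternatives run. CDKN1C fell in muscle, from 265 and 214 to 119 and 146 (-0.85, SE 0.192, adjusted p = 0.00748).

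Stages can only be set side by side, since fetal and newborn values stand in separate tables and were not tested against each other. In muscle the median level of the 38 genes was 4.27 to 4.83 FPKM at month 2, 2.79 to 3.33 at month 4, 0.392 to 0.571 in the newborn wild-type libraries and 0.633 to 0.892 in the KO ones. In brain it was 1.41 to 3.94, 1.24 to 1.41, 0.447 to 0.794 and 0.445 to 1.08. All 4 wild-type newborn libraries were below all 4 fetal ones for 33 of 38 genes in muscle and for 23 in brain. The same count was not made over all genes, so these numbers cannot be read as particular to the 38. In brain, MCM4 was at 8.56 and 6.44 at month 2, 8.91 and 8.52 at month 4 and 9.13 to 9.44 in the newborn wild type, so it was not among the 23.

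The genes varied together across newborn animals and tissues to different degrees, given here as a description because all points share libraries and the thymus. Over 28 animal and tissue points, Pearson's correlation with the median of the other 37 genes was 0.987 for TOP2A, 0.986 for CCNB2 and 0.984 for CENPF, and 0.587 for MCM4, 0.703 for RRM1 and 0.759 for CCNE1 at the low end. Over the 24 points without thymus it was 0.963 for CCNB2, 0.949 for TOP2A and 0.943 for PRC1, a cytokinesis protein, and 0.251 for RRM1, 0.299 for MCM4, 0.512 for MCM6, 0.595 for CCNE1, 0.602 for PCNA and 0.611 for CDC20. CCNB2 and TOP2A were thus among the 3 genes nearest to the common pattern with and without thymus, and RRM1 and MCM4 were the 2 farthest in both.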

How the data were processed

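The authors deposited gene expression as FPKM values in 2 tables, 1 of 56 newborn and 1 of 8 fetal libraries. Per the labels' protocols, RNA was extracted with TRIzol, purified with RNeasy, made into TruSeq libraries and sequenced on a HiSeq instrument. CASAVA, HISAT 0.1.6 and Cufflinks 2.0.2 are named per the submitters' processing notes, with no role given. The sources used here name no genome build, annotation or strand setting and do not say how reads shared by near-identical copies were counted. Since FPKM keeps no read depth, counting error could not be computed.

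From these values, log2(FPKM + 1) was analysed with limma 3.58.1 (lmFit, contrasts, eBayes with trend; statmod 1.5.0) in R 4.3.3, on genes with a mean FPKM of at least 1 over the libraries of a comparison, with Benjamini-Hochberg adjustment over all of them and a threshold of 0.05. The 2 libraries of an animal were averaged first. The script was tested on simulated data. Groups came from the labels, and 0 columns of values per sample were left unused. The 38 genes and the lists of other genes and markers were chosen with earlier results of these data known. The text gives values in every sample for MKI67, TOP2A, CCNB1, CDK1, MCM2 and PCNA where they bear on a comparison, for the 3 genes with the smallest p in each KO comparison and for the 4 largest changes past the threshold in each fetal and wild-type tissue comparison. It names up to 4 genes of each other list and always CDKN1A and CDKN1C, and a few more genes (MCM7, CDC20, UBE2C, RRM1 in KO animals) chosen after their values were seen. Wild-type tissues pair by animal, since they come from the same animals, and their deviations correlated at 0.17 to 0.47. All p-values measure the spread between these animals or libraries.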

Additional observations from a re-analysis of the deposited data

Results flagged for a closer look

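In groups of 4 libraries, the highest or lowest library was checked for a gap to its neighbour that is large for the range of the group. Of 92 groups checked, 2 had one. Chance gives about 1 in 20 for 4 independent values. Each group here was 2 animals with 2 repeat libraries each, so that rate cannot be set against the count. In heart, CDK1 was at 3.31 FPKM in 1 of the KO3 libraries, while the other 3 KO libraries were at 1.90 to 2.14. CDK1 was also at 2.12 FPKM in 1 of the WT3 heart libraries, while the other 3 wild-type libraries were at 3.81 to 4.00. In both cases the repeat library of the same animal lay with the rest of the group.

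Several changes differed between tissues by a test of the difference itself. The month change in fetal brain minus that in fetal muscle was 1.55 for TK1 and 1.33 for CCNE1, as given above. It was 4.15 for CDKN1A (adjusted p = 0.000364), 1.33 for CDC25B (adjusted p = 0.0195), 1.15 for CCND3, a D-type cyclin (adjusted p = 0.018), -1.15 for RBL2 (adjusted p = 0.0363), -1.27 for GINS1, a helicase partner (adjusted p = 0.0372), and -1.38 for MDM2, the ubiquitin ligase of p53 (adjusted p = 0.0473). Of these, CDKN1A alone was past the threshold under every alternative run. In newborns, the KO change of GADD45A in kidney minus its mean KO change in the other 6 tissues was -2.53 (adjusted p = 0.0263).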

How the results depend on the processing

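Counts are genes of the 38 past the threshold. In 1 fit of all 7 tissues, KO against wild type gave 1 in brain and 2 in liver. Leaving out 1 animal, so that a lone animal is assumed to vary like the others, gave 0 to 3 in brain, 0 to 6 in thymus, 0 to 1 in liver, heart, lung and kidney, 0 to 2 in the tissue mean and 0 in muscle. For the KO change in a tissue against the others it gave 0 to 2 in brain and kidney and 0 to 13 in thymus. Animal numbers 2 and 3 are shared by KO and wild type only as numbers (correlations of deviations -0.097 to 0.09). With the replicate block, the KO change in thymus gave 1 gene, and no other KO count changed. Fetal library numbers correlated at -0.23 in brain and 0.078 in muscle.

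In fetal brain the month comparison gave 1 in 1 fit of all fetal groups and 0 to 19 on leaving out a library. In fetal muscle (15) it gave 6 with no filter, 8 with a filter at a mean FPKM of 5, 6 in 1 fit of all groups and 4 to 16 without a library. Muscle against brain gave 7 with no filter and 2 to 26 without a library at month 2, and 4 with the filter of 5 and 8 to 16 without a library at month 4. The month change between tissues gave 1 with a pseudocount of 0.1, 0 with no filter, 0 with the filter of 5 and 0 to 4 without a library.

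Among wild-type tissues, the filter of 5 gave 13 in brain, 13 in muscle, 17 in thymus, 10 in lung and 1 in kidney. The pseudocount of 0.1 gave 4 in heart, 16 in lung and 2 in kidney. Heart gave 6 with no filter and 3 after quantile normalisation, kidney 12 after quantile normalisation, and liver 6 with the replicate block. Leaving out the thymus, chosen after seeing the data, gave 10 in brain, 11 in muscle, 12 in liver, 3 in heart and 3 in lung, and turned BUB1B to 0.16 and TPX2 to 0.13 in kidney. Leaving out an animal there leaves 1 value per tissue and no test, so it was not run. Fewer genes can be tested under the filter of 5. Other causes were not tested. With 2 animals or libraries per group and an unknown read depth, small differences could not be resolved.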
